A study of Mus musculus with 12 samples.

Results

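The 7 genes described here, *Csf1*, *Csf2*, *Csf3*, *Il34*, *Mif*, *Lgals3* and *Cd47*, encode signals through which a stromal cell can reach a macrophage (MØ), and they were followed in mouse pancreatic stellate cells (PSCs). They were found by gene symbol among the 39179 rows of the deposited count table, where all 7 have a row and *Cd47* has a second row that held no count in any library. RNA was sequenced from PSCs grown alone (mono-PSCs), with tumour cells (2W-PSCs) or with tumour cells and MØs (3W-PSCs), with 4 libraries per culture and 12 in all. The study asked how the cells around a PSC change what it expresses.

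The PSCs were 1 SV40-immortalised line of C57BL/6 origin carrying mCherry, so the replicates are repeat cultures of a line and not different animals. The tumour cells (PCC) were an EGFP-labelled mouse pancreatic cancer line, and the MØs were TagBFP-labelled RAW264.7 cells, a transformed mouse macrophage line. All 3 cultures were kept for 72 h in medium with little dialysed serum, with the same total number of cells in each flask, and cells were sorted that carried mCherry but neither EGFP nor TagBFP, a gate that leaves out labelled tumour cells and MØs. No drug or genetic change separated the groups, only the cells present. The libraries read the 3′ end of polyadenylated RNA, so a transcript gives about the same number of reads whatever its length. Levels in CPM (counts scaled to the library total) can therefore be set side by side between genes, as far as their reads map to a single gene. This limit concerns *Mif*, as described below.

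Colony stimulating factors are secreted proteins that drive the survival and growth of myeloid cells. CSF1 (M-CSF) and IL-34 share the receptor CSF1R, on which most tissue macrophages depend, whereas CSF2 (GM-CSF) and CSF3 (G-CSF) act through their own receptors, CSF2 on macrophages and granulocytes and CSF3 on neutrophils. MIF is a cytokine that signals through CD74 with CD44 or chemokine receptors. Galectin-3, the product of *Lgals3*, binds sugars on cell surfaces and matrix and attracts monocytes. CD47 is a membrane protein that engages SIRPα on phagocytes and so marks a cell as not to be eaten. In pancreatic tumours the fibroblasts that arise in part from stellate cells are a known source of CSF1.

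Of the 7 genes, *Csf1* lies on chromosome 3 (107741048-107760469, minus strand, GRCm38), *Csf2* on 11 (54247271-54249667, minus) and *Csf3* on 11 (98701263-98703629, plus). *Il34* lies on chromosome 8 (110741829-110805924, minus), *Mif* on 10 (75859353-75860240, minus), *Lgals3* on 14 (47367751-47386160, plus) and *Cd47* on 16 (49800533-49915010, plus). RefSeq promoter windows of the GRCm38.p6 build were matched for 5 of the 7, and the 250 bases before the start are given for *Csf1* and *Mif*, since both genes were higher in 3W- than in 2W-PSCs and each window held 1 of the motifs searched, shown in capitals.
Csf1, chr3:107760470-107760719, minus strand: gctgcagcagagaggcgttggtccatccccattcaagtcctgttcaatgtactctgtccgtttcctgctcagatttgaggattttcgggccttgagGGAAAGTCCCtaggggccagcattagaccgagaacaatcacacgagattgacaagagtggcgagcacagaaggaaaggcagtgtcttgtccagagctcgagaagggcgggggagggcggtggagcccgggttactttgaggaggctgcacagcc
Mif, chr10:75860278-75860527, minus strand: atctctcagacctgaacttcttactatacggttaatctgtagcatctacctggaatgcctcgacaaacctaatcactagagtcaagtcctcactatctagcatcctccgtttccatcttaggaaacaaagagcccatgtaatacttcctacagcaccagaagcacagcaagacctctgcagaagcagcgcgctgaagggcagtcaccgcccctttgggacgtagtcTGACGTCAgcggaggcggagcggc

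The capitals in the *Csf1* window, 154 to 145 bases before the start, are the NF-kB motif searched, in its form on the opposite strand. This motif, on either strand, was in 46 of 32851 RefSeq windows of that length (0.140%). The capitals in the *Mif* window are a match to the CRE motif TGACGTCA, 24 to 17 bases before the start, which was in 508 windows (1.55%) and was searched after the letters had been seen. All motifs were searched on both strands. The STAT motif TTCNNNGAA (7.02% of windows), the AP-1 motif TGANTCA (6.75%) and the interferon-stimulated response element (2.98%) matched none of the 5 member windows. *Cd47* had 2 windows, and among the 5 stands only the window whose start lies furthest upstream. A match is a run of letters, and no binding was measured in these cells.

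Libraries held 5286963 to 8093368 counts in mono-culture, 4561817 to 6907711 in the 2W and 7205488 to 8061367 in the 3W co-culture, so that 3 counts, taken as the limit that a count of 0 allows, stood for 0.347 to 0.736 CPM. 2W-PSC replicate 2 stood apart, with Spearman correlations of 0.858 to 0.920 to the rest of its culture, whereas every other pair of libraries of one culture had 0.948 to 0.987. The 12 fibroblast and stellate markers summed to 5057 to 9654 CPM in mono-culture, to 9508 to 9657 CPM in the 2W and to 5630 to 7123 CPM in the 3W co-culture. Of 10 tested between 3W-PSCs and 2W-PSCs, 5 were lower (*Acta2*, *Col3a1*, *Dcn*, *Col1a1* and *Thy1*, log2 differences of -2.55, -1.74, -0.98, -0.84 and -0.67) and *Pdgfra* was higher. Of all 11513 genes tested, 570 were called lower and 5.73% higher. *Acta2*, *Col3a1* and *Pdgfra* passed under all 17 alternative settings of the fit, *Col1a1* under 14, *Dcn* under 13 and *Thy1* under 11. *Col1a1* averaged 1729 to 3107 CPM and *Vim* 1312 to 1561 CPM over the cultures, but *Des*, a classical stellate cell marker, averaged only 0.728 to 1.68 CPM and *Lum* 0.0996 to 0.695 CPM. The 12 macrophage markers summed to 2.28 to 8.03 CPM in mono-culture, to 3.21 to 10.8 CPM in the 2W and to 8.91 to 46.2 CPM in the 3W co-culture, with 3W-PSC replicate 4 highest, and 6, 6 and 1 of the 12 were at 0 throughout mono-, 2W- and 3W-PSCs. *Adgre1*, which encodes F4/80, was at 0 in all 12 libraries. *Ptprc*, *Spi1*, *Tyrobp*, *Laptm5* and *Cd52* had no count in mono- or 2W-PSCs. Over the 3W-PSC libraries they summed to 26, 16, 28, 83 and 13 counts. The 11 epithelial markers summed to 0.484 to 2.46 CPM in mono-culture, to 74.5 to 146 CPM in the 2W and to 50.3 to 88.6 CPM in the 3W co-culture, while *Epcam* averaged at most 0.160 CPM. These marker levels moved with the cultures, and their part in the results was not tested. In sorted bulk samples, fewer cells of a type and less RNA per cell cannot be told apart.

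**Figure D1:**
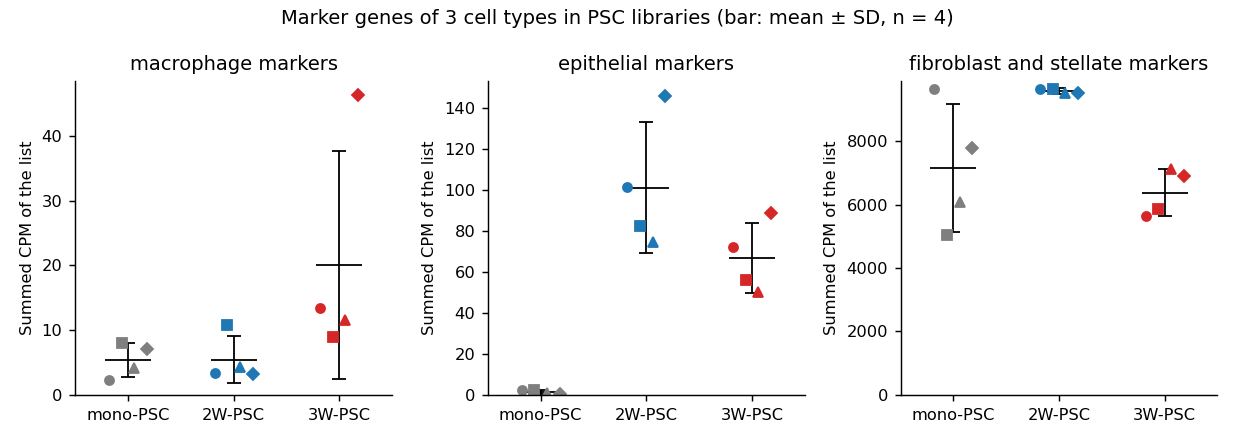
Summed CPM of the macrophage (left), epithelial (middle) and fibroblast and stellate (right) marker lists in each library of the 3 cultures, with bars for the mean ± SD (n = 4). Macrophage markers were highest in 3W-PSC replicate 4 (46.2 CPM) and epithelial markers were at 74.5 CPM or more in all 2W-PSC libraries and at 2.46 CPM or less in all mono-PSC libraries.

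*Csf1*, the main growth factor of macrophages, was the member that differed most between 3W-PSCs and both other cultures. It stood at 147, 57.2, 85.4 and 100 CPM in the 4 mono-PSC libraries, at 118, 150, 198 and 125 CPM in the 2W-PSC libraries and at 387, 379, 491 and 322 CPM in the 3W-PSC libraries. All 3W-PSC libraries lay above every library of the other cultures, whereas mono-PSCs and 2W-PSCs overlapped through mono-PSC replicate 1. Means were 97.5 ± 37.6, 148 ± 36.1 and 395 ± 70.3 CPM (SD, n = 4 each). Among genes with any count, this placed *Csf1* at percentile 88.4 of all levels in mono-PSCs, 93.0 in 2W-PSCs and 98.2 in 3W-PSCs.

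*Csf1* was 2.68-fold higher in 3W- than in 2W-PSCs (95% interval 1.95 to 3.68, adjusted p = 0.00191, edgeR quasi-likelihood test with Benjamini-Hochberg adjustment over all genes). Against mono-PSCs it was 4.03-fold higher (interval 2.87 to 5.64, adjusted p = 5.18e-06). Both comparisons share the 3W-PSC libraries, as each pair of comparisons here shares a culture. Between 2W-PSCs and mono-PSCs the log2 difference was 0.61 (interval 0.0071 to 1.22), with an unadjusted p of 0.0478 and an adjusted p of 0.658 in edgeR, so that a step between these cultures was not called. *Csf1* was lowest, among 3W-PSC libraries, in replicate 4, where macrophage markers were highest, and without that library it was higher than in 2W-PSCs by 1.51 on the log2 scale, against 1.42 with it. Without 2W-PSC replicate 2 the log2 difference was 1.43. Whether MØ RNA contributed to the *Csf1* level was not tested.

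*Il34*, which encodes the second ligand of CSF1R, stayed low in all cultures. It was at 1.05, 5.48, 3.55 and 5.44 CPM in mono-PSCs, at 5.35, 8.59, 4.30 and 4.33 CPM in 2W-PSCs and at 5.98, 4.97, 4.96 and 6.63 CPM in 3W-PSCs. The 3 cultures overlapped, with mono-PSC replicate 1 the lowest and 2W-PSC replicate 2 the highest. The log2 difference between 3W-PSCs and 2W-PSCs was 0.014 (interval -0.71 to 0.74, adjusted p = 0.986 in edgeR), an interval of 0.612 to 1.67 as a fold. Against mono-PSCs, *Il34* gave 0.54 in 2W-PSCs (interval -0.56 to 1.64) and 0.52 in 3W-PSCs (interval -0.37 to 1.41) on the log2 scale, neither of them called. It rested on 6 to 51 counts per library, which limits how small a change could be seen.

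Nearly all CSF1R ligand transcripts in PSCs were *Csf1*. Of the summed counts of both ligands, *Csf1* made up 98.5% ± 0.429 in 3W-PSCs, 96.2% ± 1.40 in 2W-PSCs and 95.4% ± 3.32 in mono-PSCs (SD, n = 4 each). The share was higher in 3W- than in 2W-PSCs (exact two-sided permutation test, p = 0.0286, the smallest that 4 against 4 libraries allow), and it was not separated from mono-PSCs (exact p = 0.143), where replicate 1 held 140 *Csf1* counts for each *Il34* count and the other libraries 10.4 to 24.1.

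*Csf2* and *Csf3* were at the edge of detection. *Csf2* had no count in any mono-PSC or 2W-PSC library, and 1, 1, 0 and 7 counts in the 3W-PSC libraries. Only 3W-PSC replicate 4 was above the 3 counts that a 0 allows. It is the library with the most macrophage marker counts, among them 75 of *Laptm5* and 20 of *Ptprc*, both pan-leukocyte genes. Its epithelial marker sum, 88.6 CPM, was also the highest of its culture, where the others had 50.3 to 72.3 CPM. The 2W-PSC libraries had 74.5 to 146 CPM and no *Csf2* count. In the paper, tumour cells expressed *Csf2*. The source of the 7 counts was not tested. *Csf3* had 2 counts in 2W-PSC replicate 3 and none elsewhere. Both genes were taken out by the filter on low counts. With no filter *Csf2* had an adjusted p of 0.248 between 3W-PSCs and 2W-PSCs and 0.130 between 3W-PSCs and mono-PSCs, and *Csf3* 0.433 between 3W-PSCs and 2W-PSCs and 0.777 between 2W-PSCs and mono-PSCs, all in edgeR. A difference between cultures was not detectable at this depth.

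**Figure D2:**
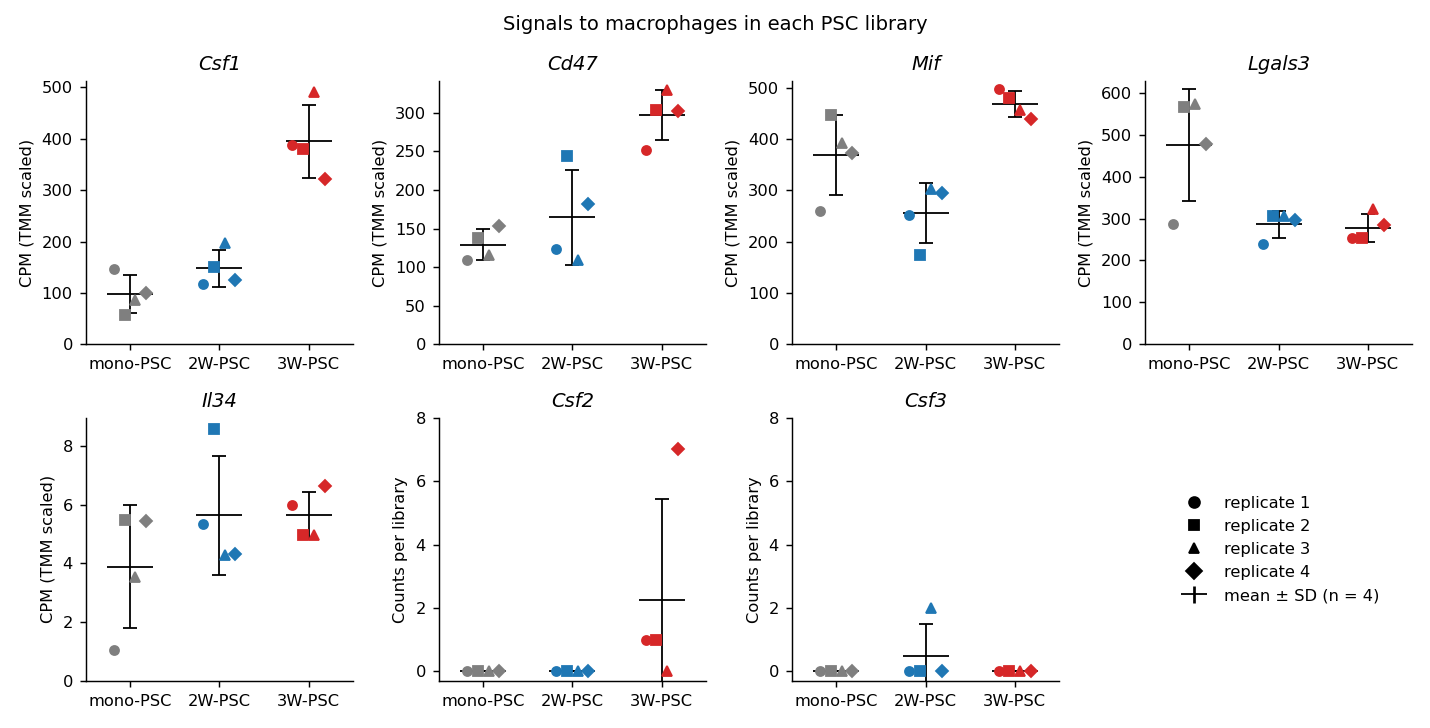
Level of each of the 7 genes in each PSC library, in CPM for 5 genes and in counts for *Csf2* and *Csf3*, with a marker shape per replicate number and bars for the mean ± SD (n = 4), drawn from the axis floor upward. All 4 3W-PSC libraries lie above all 2W-PSC libraries for *Csf1*, *Cd47* and *Mif*, and the cultures overlap for *Il34*.

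*Mif*, the macrophage migration inhibitory factor gene, was already abundant in mono-PSCs and was lowest in 2W-PSCs. The mono-PSC libraries stood at 260.3, 448, 393 and 373 CPM, the 2W-PSC libraries at 251, 175, 302 and 294 CPM and the 3W-PSC libraries at 497, 479, 456 and 439 CPM. All 3W-PSC libraries were above all 2W-PSC libraries but overlapped mono-PSC replicate 2, and 2W-PSC replicate 2 was the lowest of the 12. Means were 368 ± 78.6, 255 ± 58.3 and 468 ± 25.4 CPM (SD, n = 4 each).

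*Mif* was 1.83-fold higher in 3W- than in 2W-PSCs (interval 1.38 to 2.44, adjusted p = 0.0144 in edgeR). The adjusted p rose to 0.0543 without 3W-PSC replicate 1 and to 0.0562 without 3W-PSC replicate 2, while the log2 difference stayed at 0.85 and 0.86, and without 2W-PSC replicate 2 it was 0.73 with an adjusted p of 0.00193. Against mono-PSCs, 3W-PSCs differed by 0.34 on the log2 scale (interval -0.012 to 0.69, adjusted p = 0.144) and 2W-PSCs by -0.51 (interval -1.02 to -0.0083, adjusted p = 0.654), neither called. *Mif* was thus called between the co-cultures and in neither comparison with PSCs grown alone.

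*Mif* has processed pseudogenes, and 49.1% of the 75-base windows in its last 500 transcript bases also occur in *Gm10169*, *Gm16379* or *Gm8762*. Reads of the copies in the table made up 3.85% to 20.3% of the sum of *Mif* and its copies per library. With these counts added to *Mif*, the log2 difference between 3W-PSCs and 2W-PSCs was 0.88 and the adjusted p 0.00722. None of the other members shared such a window with another gene.

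*Lgals3*, which encodes galectin-3, had the highest mean CPM of the members in mono-PSCs and moved the other way. It was at 287, 567, 573 and 478 CPM in mono-PSCs, at 239, 305, 306 and 297 CPM in 2W-PSCs and at 253, 254, 324 and 284 CPM in 3W-PSCs. Of the mono-PSC libraries, 3 were above every co-culture library, and replicate 1 lay among them. *Lgals3* fell by 0.78 on the log2 scale from mono-PSCs to 3W-PSCs (interval -1.19 to -0.37, adjusted p = 0.00655 in edgeR), although the libraries overlapped and the exact permutation p on CPM was 0.0571.

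In 2W-PSCs the difference from mono-PSCs was of like size, -0.72 (interval -1.23 to -0.20), but was not called (unadjusted p = 0.0102, adjusted p = 0.318). The co-cultures themselves did not separate, with a log2 difference of -0.04 between 3W-PSCs and 2W-PSCs (interval -0.39 to 0.31, adjusted p = 0.904), an interval of 0.762 to 1.24 as a fold. Without mono-PSC replicate 1 the fall to 3W-PSCs was -0.97 (adjusted p = 4.26e-05) and that to 2W-PSCs -0.92 (adjusted p = 0.0602).

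*Cd47*, the signal that restrains phagocytosis, was highest in 3W-PSCs. The mono-PSC libraries were at 109, 138, 116 and 153 CPM, the 2W-PSC libraries at 123, 244, 109.5 and 182 CPM and the 3W-PSC libraries at 252, 304, 330 and 302 CPM. All 3W-PSC libraries lay above the other 8, but the gap to 2W-PSC replicate 2, the library that stands apart, was only that between 244 and 252 CPM. Means were 129 ± 20.2, 165 ± 61.4 and 297 ± 32.4 CPM (SD, n = 4 each).

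Against mono-PSCs, *Cd47* was 2.30-fold higher in 3W-PSCs (interval 1.83 to 2.89, adjusted p = 2.29e-05 in edgeR) and was not called in 2W-PSCs (log2 difference 0.37, interval -0.19 to 0.93, adjusted p = 0.938). Against 2W-PSCs it was 1.81-fold higher in 3W-PSCs (interval 1.25 to 2.62, adjusted p = 0.0475), a call that lies at the threshold. It passed under 7 of 17 alternative settings. Without 2W-PSC replicate 2 the log2 difference was 1.11 and the adjusted p 0.000580, whereas the adjusted p was 0.111 without 2W-PSC replicate 1, 0.0773 without replicate 3 and 0.103 without replicate 4. Without 3W-PSC replicates 1, 2, 3 and 4 in turn it was 0.0825, 0.129, 0.117 and 0.112, and the log2 difference kept its sign throughout, from 0.69 to 1.11.

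**Figure D3:**
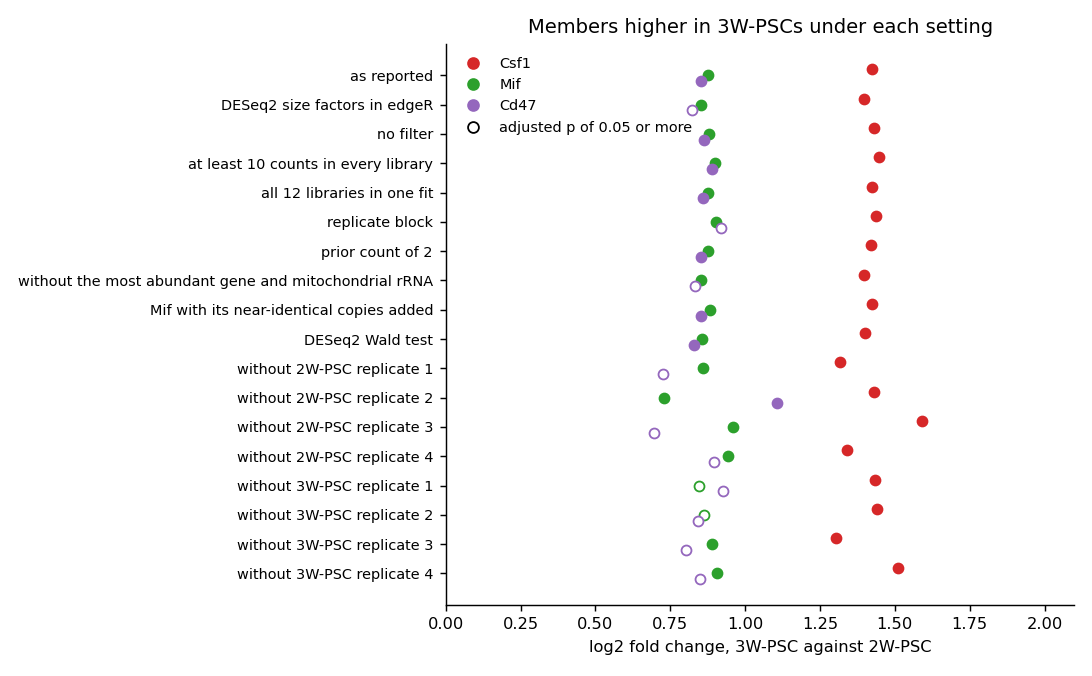
Log2 fold change of *Csf1*, *Mif* and *Cd47* in 3W-PSCs against 2W-PSCs (horizontal axis) as reported and under each of the 17 alternative settings (vertical axis), filled where the adjusted p was under 0.05 and open otherwise. *Csf1* is filled in every row, *Mif* is open without 3W-PSC replicate 1 or 2, and *Cd47* is filled in 7 of the 17 alternatives.

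Seen over the whole group, 3 of the 5 members with enough counts to test were called between 3W-PSCs and 2W-PSCs, all higher, where 10.7% of all 11513 genes tested were called and 5.73% were called higher. The libraries of these 3 did not overlap, as was so for 21.3% of all genes tested, 11.5% in the higher direction. The median log2 difference of the 5 was 0.85, beside 0.0025 over all genes. Between 2W-PSCs and mono-PSCs 0 of 5 were called, beside 0.991% of 11199 genes. There, 3 of the 5 had an unadjusted p under 0.05 in edgeR, beside 829 of all 11199 genes. DESeq2 also called 0 of 5, beside 275 of the 14143 genes to which it gave an adjusted p, and the median was 0.37 beside 0.020 over all genes. No member had libraries without overlap there, beside 5.73% of genes. Between 3W-PSCs and mono-PSCs 2 were called higher and 1 lower, beside 26.4% of 11551 genes called in either direction, 13.4% higher and 13% lower. The 2 higher members did not overlap, as for 25.9% of genes (13.7% in the higher direction), and the median was 0.52 beside 0.012. The members were chosen with earlier results of these data known, so these shares are no test of the group.

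**Figure D4:**
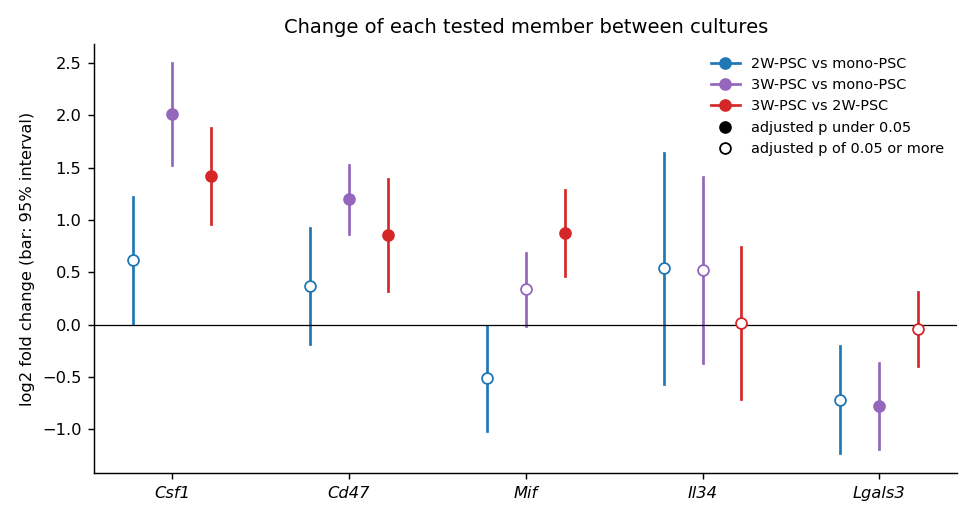
Log2 fold change of the 5 tested members in the 3 comparisons between cultures, with 95% intervals, filled where the adjusted p was under 0.05. *Csf1* and *Cd47* are filled against both other cultures, *Mif* only in 3W-PSCs against 2W-PSCs and *Lgals3* only in 3W-PSCs against mono-PSCs, where it is lower.

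The order of the members by CPM differed between cultures. The *Mif* levels leave out reads counted for its copies, on average 7.09%, 10.6% and 10.1% of the sum of *Mif* and copies in mono-, 2W- and 3W-PSCs. How this bears on the order was not tested. In mono-PSCs *Lgals3* and *Mif* led, with overlapping libraries (287 to 573 and 260.3 to 448 CPM), followed by *Cd47* and *Csf1*, which overlapped as well. The order was the same in 2W-PSCs, where each of these 4 overlapped its neighbours. In 3W-PSCs *Mif* and *Csf1* came first with overlapping libraries (439 to 497 and 322 to 491 CPM), and *Cd47* and *Lgals3* followed (252 to 330 and 253 to 324 CPM). *Csf1* and *Cd47* also overlapped, through 3W-PSC replicates 4 and 3. *Il34* came next in each culture, and *Csf2* and *Csf3* were at or near 0.

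Over the 12 libraries, log2 CPM of *Csf1* had a Pearson r of 0.76 with *Cd47*, -0.66 with *Lgals3* and 0.36 with *Mif*. *Mif* and *Lgals3* had an r of 0.23. These describe 12 points that fall into 3 cultures and share library depth. The genes with the pattern most like that of *Csf1*, by r over the 12 libraries among 8700 genes, were *Zswim4* (0.97), *Abcc1* (0.97), *Mov10* (0.96), *Dram1* (0.95) and *Ggta1* (0.95). For *Cd47* they were *Tapbp* (0.98), *Ly6e* (0.96), *Oas1b* (0.96), *Tlr3* (0.95) and *Tmem176a* (0.95). *Mif* was most like *Rbbp5* (0.92), *Fam162a* (0.91), *Fbxw17* (0.90), *Glb1* (0.90) and *Adora2b* (0.89), and *Lgals3* most like *Tuba4a* (0.92), *Vegfb* (0.92), *Taldo1* (0.92), *Sec22a* (0.91) and *Vdac3* (0.90).

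The receptors and binding partners of the 7 signals were measured in the same PSCs, as a list of 16 genes. Between 3W-PSCs and 2W-PSCs 10 could be tested and 3 were higher and 0 lower, with a median log2 difference of 1.03, beside 5.73% of all genes called higher. Between 3W-PSCs and mono-PSCs 7 of 9 tested were higher and 0 lower (median 1.74), beside 13.4% of all genes called higher, and between 2W-PSCs and mono-PSCs 1 of 8 was higher (median 0.38), beside 0.991% of genes called in either direction. The medians over all genes tested are those given above for the members. This list too was chosen with earlier results known, so its shares are a description and no test.

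For *Mif*, the partners that rose were *Cd44* and *Ackr3*. *Cd44*, which encodes the signalling partner of CD74 and a hyaluronan receptor, was at 129, 53.3, 100.1 and 86.0 CPM in mono-PSCs, at 133, 43.2, 166 and 97.1 CPM in 2W-PSCs and at 320, 372, 336 and 283 CPM in 3W-PSCs. All 3W-PSC libraries were above all others, and 2W-PSC replicate 2 was the lowest of the 12. The log2 difference was 1.58 against 2W-PSCs (SE 0.326, adjusted p = 0.0118 in edgeR) and 1.82 against mono-PSCs (SE 0.212, adjusted p = 5.98e-06). *Ackr3*, an atypical chemokine receptor that binds MIF, rose by 1.70 against 2W-PSCs (adjusted p = 0.0222), from a mean of 7.07 to 23.3 CPM, and the adjusted p was 0.0580 without 2W-PSC replicate 4, 0.0742 without 3W-PSC replicate 2 and 0.0709 without 3W-PSC replicate 3. *Cd74* itself, the primary MIF receptor, averaged 2.55, 2.18 and 7.19 CPM in mono-, 2W- and 3W-PSCs and was called against mono-PSCs (log2 difference 1.47, adjusted p = 0.0139) but not against 2W-PSCs (adjusted p = 0.0567). It was highest in 3W-PSC replicate 4, at 12.2 CPM, the library with the most macrophage markers. Without that library the adjusted p against mono-PSCs was 0.0892, and without 2W-PSC replicate 2 that against 2W-PSCs was 0.00423. *Cxcr2* and *Cxcr4* had at most 4 counts in any library.

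*Sdc1* encodes syndecan-1, a proteoglycan that binds IL-34. It averaged 37.0, 51.6 and 125 CPM in mono-, 2W- and 3W-PSCs, and rose by 1.27 on the log2 scale between 2W- and 3W-PSCs (SE 0.205, adjusted p = 0.00333). The CSF1R gene itself had 2, 0, 0 and 0 counts in mono-PSCs, 1, 28, 8 and 7 in 2W-PSCs and 15, 27, 17 and 15 in 3W-PSCs. It was called higher in 3W- than in mono-PSCs (adjusted p = 0.000861 in edgeR). *Csf1r* is a macrophage marker, and 2W-PSC replicate 2, which had no MØs in its culture, held the most. *Csf2ra* averaged 1.27 to 1.49 CPM, *Csf2rb* had at most 6 counts in a 3W-PSC library and none elsewhere, and *Csf3r* and *Csf2rb2* had none in any library.

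Partners of galectin-3 and CD47 were mixed. *Lgals3bp*, a secreted galectin-3 ligand, averaged 72.9, 151 and 259 CPM in mono-, 2W- and 3W-PSCs, and was higher in 3W- than in mono-PSCs by 1.82 (adjusted p = 2.83e-06), while against 2W-PSCs the difference of 0.78 had an adjusted p of 0.0531, or 0.000402 without 2W-PSC replicate 2. *Thbs2*, a matrix thrombospondin, was the 1 partner called between 2W-PSCs and mono-PSCs, from 12.9 to 62.1 CPM (log2 difference 2.27, adjusted p = 0.000577). *Thbs1*, which encodes a secreted ligand of CD47, averaged 70.8, 103 and 63.2 CPM and was called in none of the 3 comparisons, although without 2W-PSC replicate 4 the adjusted p between 3W-PSCs and 2W-PSCs was 0.0494. *Sirpa*, the receptor that reads CD47, averaged 4.87, 3.00 and 9.36 CPM and was not called either (adjusted p = 0.0850 between 3W-PSCs and 2W-PSCs, 0.0252 without 2W-PSC replicate 2; against mono-PSCs 0.102, and 0.00589 without mono-PSC replicate 1).

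**Figure D5:**
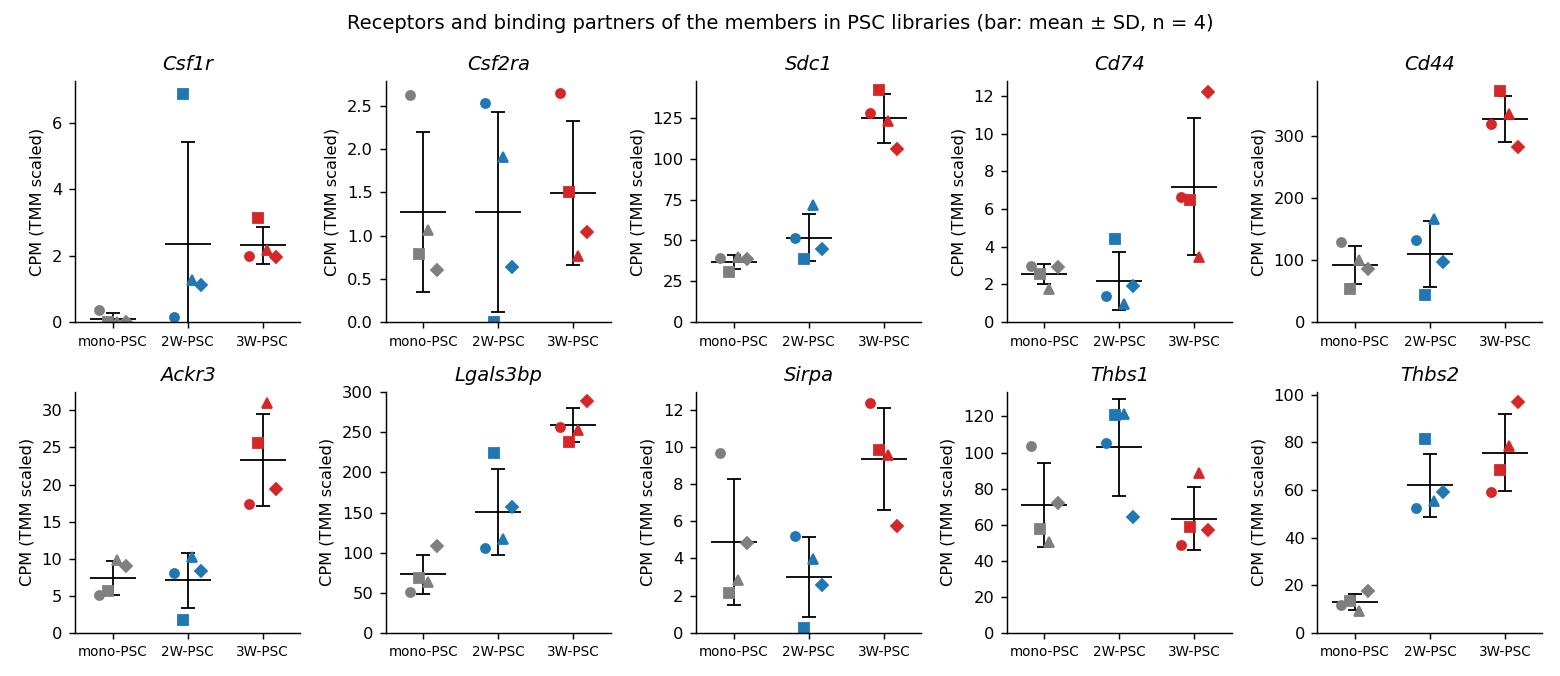
CPM of the 10 receptors and binding partners with enough counts to test in 3W-PSCs against 2W-PSCs, in each library of the 3 cultures, with marker shapes by replicate number as for the members and bars for the mean ± SD (n = 4), drawn from 0 upward. *Cd44*, *Ackr3* and *Sdc1* were called higher in 3W- than in 2W-PSCs, and *Thbs2* was the 1 gene called between 2W-PSCs and mono-PSCs.

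CSF1 is made as a membrane protein that proteases can release. Of 4 genes for such release, *Adam17*, which encodes the sheddase TACE, was the 1 called between 3W-PSCs and 2W-PSCs, higher by 0.95 (SE 0.179, adjusted p = 0.00724), with means of 77.8 and 40.2 CPM. *Adam10*, *Rhbdf1* and *Rhbdf2* were not called in any comparison made. Of the 6 tested genes for other phagocytosis signals, *Pros1*, a bridge to apoptotic cells, was the 1 called between 3W-PSCs and 2W-PSCs (log2 difference 1.59, adjusted p = 0.00468), and the median of the 6 was -0.39. *Cd24a*, a further signal that restrains phagocytosis, averaged 0.274, 4.83 and 3.48 CPM in mono-, 2W- and 3W-PSCs and was called in both co-cultures against mono-PSCs (log2 differences 4.15 and 3.69), as were all 5 epithelial markers tested. In 2W-PSCs its adjusted p of 0.0170 became 0.0583, 0.0959 and 0.0535 without mono-PSC replicates 2, 3 and 4, and 0.0658 and 0.0811 without 2W-PSC replicates 1 and 4.

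Among the relatives of MIF and galectin-3, no gene was called higher in 3W- than in 2W-PSCs. *Ddt*, the closest relative of *Mif*, averaged 88.3, 66.7 and 55.9 CPM in mono-, 2W- and 3W-PSCs, was called lower in 3W- than in mono-PSCs (log2 difference -0.67, adjusted p = 0.0124, 0.0502 without 3W-PSC replicate 4) and was not called against 2W-PSCs (-0.25, adjusted p = 0.363). *Lgals1*, which encodes galectin-1, averaged 3050, 2933 and 1761 CPM. Like *Lgals3*, it was called lower in 3W- than in mono-PSCs (log2 difference -0.80, adjusted p = 0.00457 in edgeR), under all 17 alternative settings as well. It also fell by 0.73 on the log2 scale between 2W- and 3W-PSCs (adjusted p = 0.0390), the comparison in which *Lgals3* was not called. The call against 2W-PSCs was lost with the replicate number as a block (adjusted p = 0.0895), without 2W-PSC replicates 3 and 4 (0.0528 and 0.0891) and without 3W-PSC replicates 1, 2, 3 and 4 in turn (0.118, 0.143, 0.0582 and 0.100). Of 6 relatives tested between 3W-PSCs and 2W-PSCs, 0 were higher and 1 was lower. Of the other myeloid growth factors, *Kitl*, *Flt3l*, *Vegfa* and *Pgf* could be tested and 0 of 4 were called between 3W-PSCs and 2W-PSCs. Of 6 tested monocyte chemoattractants, 4 were higher there (*Ccl2*, *Ccl5*, *Ccl7* and *Ccl8*) and 1, *Cxcl12*, was lower. Beside the lists here and in the paragraph before, 5.73% of all 11513 genes were called higher in that comparison and 570 lower. The lists were chosen with earlier results known, so their counts are no test.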

How the data were processed

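RNA of sorted PSCs was sequenced as single 75-base reads with a 3′ kit (QuantSeq FWD). The authors ran FastQC and trimming, then STAR against GRCm38, then featureCounts with Ensembl gene models; the deposited table holds raw whole counts per gene and library, although the text of the study calls them normalised. Strand setting, treatment of reads with several alignments and molecular identifiers are not given in the sources used here. All 12 columns were used and 0 columns belonged to no sample.

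Here, genes were filtered with filterByExpr, scaled by TMM and tested per pair of cultures (4 against 4) with the edgeR 4.0.16 quasi-likelihood test in R 4.3.3, with Benjamini-Hochberg adjustment over all genes tested. A call is an adjusted p under 0.05. CPM are TMM scaled, SEs are the log2 fold change over the root of F, and intervals are 95%. Shares and single levels were compared by exact two-sided permutation tests, whose smallest p is 0.0286 for 4 against 4. P-values measure the spread between cultures of 1 line. The named genes are the 7 members, the tested genes of lists of partners and relatives, and the 5 genes most like each member among those with a mean log2 CPM of at least 3. The members and lists were chosen with earlier results of these data known. Alternatives were DESeq2 1.42.0, its size factors, other filters, one fit of all libraries, the replicate block, a prior count of 2, library sizes without the most abundant gene (*Gm26924*) and mitochondrial rRNA, each library left out, and *Mif* with its copies. Intervals and limits cover counting error and library spread only.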

Additional observations from a re-analysis of the deposited data

Results flagged for a closer look

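In groups of 4 libraries, 1 library lay far from the other 3 in 3 of 17 groups checked by the gap to its neighbour over the range of the group (Dixon's test). Chance gives about 1 in 20 such groups of measured values, which does not hold for groups of a few counts such as *Csf2* and *Csf3*. *Csf2* was at 0.909 CPM (7 counts) in 3W-PSC replicate 4, against 0 to 0.133 CPM in the other 3W-PSC libraries. *Csf3* was at 0.318 CPM (2 counts) in 2W-PSC replicate 3 and 0 in the others of its culture, which is under the limit that a count of 0 allows, and a single library above 0 always meets the criterion. *Lgals3* was at 239 CPM in 2W-PSC replicate 1, with the other 2W-PSC libraries at 297 to 306 CPM, and the log2 difference from mono-PSCs was not called with or without it.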

How the results depend on the processing

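The tests of the members were repeated under 16 planned settings and 1 chosen after the data had been seen (the counts of the *Mif* copies added to *Mif*). *Csf1* was called under all 17 in 3W-PSCs against both other cultures, as were *Cd47* and *Lgals3* in 3W-PSCs against mono-PSCs, and 0 members passed in 2W-PSCs against mono-PSCs under any. *Cd47* in 3W-PSCs against 2W-PSCs had an adjusted p of 0.0575 with DESeq2 size factors and 0.0526 without the most abundant gene and mitochondrial rRNA. The number of members called in that comparison ranged from 1 to 3 with 1 library left out, and was 1 without 3W-PSC replicate 1 or 2. Where a log2 difference near 0 changed sign, *Il34* in 3W-PSCs against 2W-PSCs gave -0.014 with DESeq2 size factors, -0.0086 without the most abundant gene and mitochondrial rRNA, -0.0022 in the DESeq2 Wald test and -0.10 to 0.27 with 1 library left out, and *Lgals3* gave -0.13 to 0.0061 with 1 left out. The cause was not tested. The other genes of the lists were run under the same settings after the data had been seen. Cell type markers aside, 9 of the 11 calls between 3W-PSCs and 2W-PSCs passed under each setting with an adjusted p. So did 1 of 2 between 2W-PSCs and mono-PSCs and 15 of 20 between 3W-PSCs and mono-PSCs, and 0 changed sign. The share of *Csf1* and the exact permutation tests were not repeated. *Il34* could not be fitted against mono-PSCs under the filter of 10 counts in every library.

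The replicate numbers were not taken to pair the libraries, since same-numbered libraries had correlations of -0.048 to 0.15 between 3W-PSCs and 2W-PSCs, 0.099 to 0.34 between 2W-PSCs and mono-PSCs and 0.0026 to 0.11 between 3W-PSCs and mono-PSCs, so that not every pair was over 0.1. Pairs with different numbers had -0.17 to 0.11, -0.26 to 0.22 and -0.12 to 0.072, and 3, 6 and 4 of 8 libraries correlated best with their own number, the most between 2W-PSCs and mono-PSCs. With the replicate number as a block, *Cd47* in 3W-PSCs against 2W-PSCs gave a log2 difference of 0.92 (adjusted p = 0.0528), 2, 0 and 3 members were called in the 3 comparisons, and 752 genes in all in place of 1230 were called between 3W-PSCs and 2W-PSCs. Over all genes that count ranged from 497 to 2107 with 1 library left out. Between 2W-PSCs and mono-PSCs the 111 genes called became 177 with no filter, 57 with 10 counts in every library, 262 with all 12 libraries in one fit, 275 in DESeq2 and 61 to 233 with 1 library left out. Depth limited *Csf2* and *Csf3*, which were tested only with no filter and not called there, and *Il34*.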
